A study of Mus musculus with 24 samples.

Results

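The genes described here were the collagens and 5 small proteoglycans that fibroblasts of the brain's coverings secrete with them, read in hippocampal RNA of mice labelled as Tob knockouts and of wild-type mice. They were taken by name, as every gene called Col, a number, a and a number, plus Lum, Dcn, Ogn, Fmod and Bgn, and were kept with at least 10 counts in at least 6 of the 24 libraries. Such a name was carried by 49 of the 47593 genes measured, and 48 were kept, 43 collagens and the 5 proteoglycans. Col10a1, with at most 19 counts and at least 10 counts in 4 libraries, was left out.

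The 24 libraries came from hippocampi of male C57BL/6J mice in 8 groups of 3. Wild-type (WT) mice and mice with a constitutive Tob deletion (Tob-KO), meant to remove the gene from every cell type, were taken naive, or at 15 min, 1 h or 3 h following fear conditioning, in which a tone is paired with foot shocks. The naive mice received no conditioning, and an age of 8 to 12 weeks is given for the mice of the behavioural tests. Libraries are named by genotype, time and replicate. Tob1, the deleted gene, was at 33.7 to 44.4 CPM (counts scaled to the TMM-normalized library total) in the WT libraries and at 52.02 to 68.6 CPM in those labelled Tob-KO, so it was higher under the label of the deletion, and directions below follow the labels. A count over a whole gene does not show which exons were read.

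Collagens are triple helices of 3 alpha chains, each chain the product of its own gene. Fibrillar collagens such as types I and III form the fibres of the meninges and of the sheaths around large vessels, where fibroblasts make them, and the small leucine-rich proteoglycans coat these fibres. Type IV collagen forms the network of basement membranes, in the brain mainly around capillaries, and is made by endothelial and mural cells. Other collagens span the plasma membrane, and some of those, such as type XXV, are made by neurons.

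Depth was 28847989 to 41595972 counts per library, and the 48 members together took 0.0497% to 0.0786% of them. All 8 markers of hippocampal neurons were present in every library. The 15 markers of choroid plexus epithelium, a tissue that lies against the hippocampus, divided the libraries, with a mean log2 CPM of -0.35 to 0.83 in 10 libraries (called poor here) and of 3.21 to 5.91 in 14 (called rich). All 3 WT 15 min libraries were poor and all 3 Tob-KO 1 h libraries were rich, and each other group held both kinds. The 14 markers of meningeal and perivascular fibroblasts summed to 78.5 CPM in Tob-KO naive replicate 1 and to 128 to 453 CPM elsewhere. Igf2 and Igfbp2 had the highest medians of the 14 (98.97 and 39.39 CPM). Both had higher medians in the rich than in the poor libraries (168 against 63.9 CPM and 69.0 against 21.5 CPM), while Slc6a13 did not (7.70 against 8.15 CPM). The sum can thus follow the kind of library as well as the fibroblasts.

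Levels of different genes are set side by side per kilobase of exon, the length being that of all annotated exons of a gene joined. This can exceed the length of the RNA made, so the order of the members is approximate. On this scale the most abundant members came from several classes. Col4a2 (8.63 CPM per kb over the 24 libraries) and Col4a1 (6.77), the chains of the capillary basement membrane, led with Col9a3 (8.57), Col25a1 (6.95) and Dcn (6.86), which encodes decorin. The place of Col9a3 rested on the 14 rich libraries, where its median was 11.6 CPM per kb, since it was 3.23 in the 10 poor ones, below Dcn at 6.704. Fmod, encoding fibromodulin, stood at 4.696 CPM per kb. Col11a2, a minor fibrillar chain, stood at 4.07 CPM per kb, above Col1a2 at 1.97 and Col1a1 at 1.93, the chains of type I collagen. In plain CPM the means of these 3 were 27.99, 24.53 and 12.67, and their joined exons held 6874, 12426 and 6563 bases. Col6a1 at 4.05 and Col6a2 at 1.17 led the beaded filament collagens. Col8a2 at 3.06 and Col8a1 at 1.85 form hexagonal networks, Col9a2 at 1.93 is a fibril-associated chain, and Col23a1 at 2.67 spans the membrane. The lowest mean was that of Col6a6, 0.0552 CPM per kb. In plain CPM, 44 of the 48 members averaged at least 1 and 20 averaged at least 10.

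**Figure D1:**
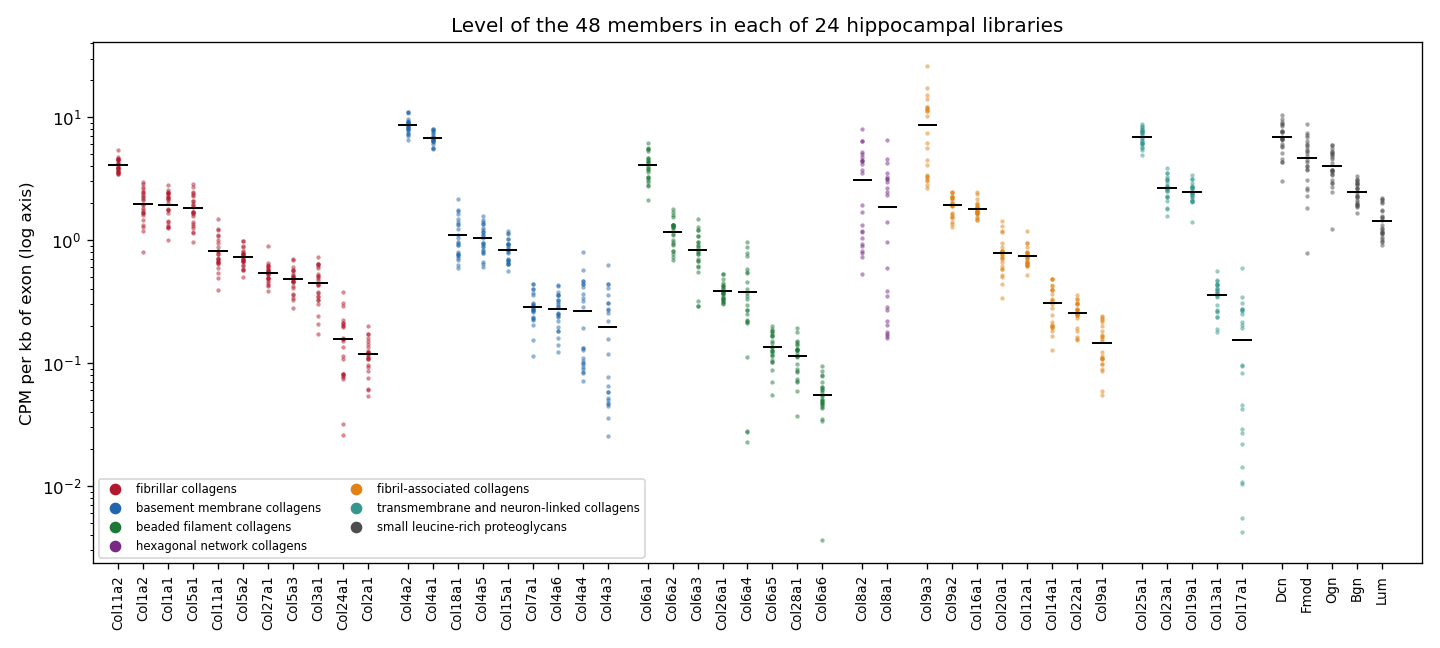
CPM per kb of exon on a log axis for the 48 members, grouped by class, with 1 point per library (n = 24) and a black bar for the mean. Col8a1, Col8a2, Col9a3, Col4a3, Col4a4 and Col17a1 spread widely, as do Col6a4, Col6a6, Col24a1 and Fmod. Col4a1, Col4a2, Col11a2, Col16a1, Col25a1 and Col26a1 stay within a factor of 1.79.

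The members varied more between mice of 1 group than most genes. The within-group standard deviation (SD) of log2 CPM was above the median of all 19500 genes, 0.153, for 46 of the 48, and its median over the members was 0.400. Col4a2 (SD 0.124) and Col4a1 (0.137) were the 2 below it, followed by Col11a2 (0.169). Col8a1 (1.904), Col17a1 (1.81) and Col6a4 (1.54) varied most. Summed over a class, the transmembrane and neuron-linked collagens were the steadiest, the highest library being 1.48 times the lowest, against 1.61 for the fibrillar, 1.65 for the basement membrane and 1.74 for the beaded filament collagens. The proteoglycans spanned a factor of 2.56, the fibril-associated collagens 3.04 and the hexagonal network collagens 21.7. Single libraries held many of the extremes. Tob-KO 15 min replicate 3, the deepest library, was lowest for 13 members, Tob-KO naive replicate 1 for 9, and Tob-KO naive replicate 2 was highest for 13.

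Of the members, 5 had every rich library above every poor one, and none had the reverse. Over all 19500 genes 0.595% did so, and the sets were drawn from the same libraries, so the counts are a description. Col8a1 (chromosome 16, 57624258 to 57754737 on GRCm38) ran at 1.24 to 3.02 CPM in the 10 poor libraries and 4.63 to 50.96 CPM in the 14 rich ones, with medians of 1.66 and 24.1 CPM. Col8a2 (chromosome 4, 126286793 to 126314330), the other chain of type VIII collagen, ran at 2.401 to 5.97 CPM in the 10 poor libraries and 7.55 to 35.8 CPM in the 14 rich ones. Both chains were thus separated by a gap between the 2 kinds of library. Col9a3 (chromosome 2, 180597790 to 180622189), a chain of the fibril-associated type IX collagen, ran at 10.2 to 17.2 CPM in the 10 poor libraries and 21.8 to 100.3 CPM in the 14 rich ones. Col4a3 (chromosome 1, 82586921 to 82722059) ran at 0.253 to 0.651 CPM in the 10 poor libraries and 0.771 to 6.25 CPM in the 14 rich ones. Col17a1 (chromosome 19, 47646344 to 47692094), a transmembrane collagen, ran at 0.0253 to 0.275 CPM in the 10 poor libraries and 0.503 to 3.58 CPM in the 14 rich ones, its lowest library holding 1 count. Col4a4 (chromosome 1, 82448423 to 82586849), the partner of Col4a3 in basement membranes, ran at 0.759 to 1.41 CPM in the 10 poor libraries and 1.35 to 8.48 CPM in the 14 rich ones and so overlapped by a small margin. The ratio of the rich to the poor median was 14.5 for Col8a1, 14.2 for Col17a1, 6.03 for Col4a3, 4.84 for Col8a2, 4.09 for Col4a4 and 3.58 for Col9a3, and below 2 for each of the other 42 members.

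Among the members with ratios below 2, the ratio was 1.94 for Col14a1, 1.79 for Col18a1, the collagen from which endostatin is cut, and 1.47 for Col4a5. It lay between 0.793 and 1.16 for the 11 fibrillar collagens and between 1.07 and 1.44 for the 5 proteoglycans. Col1a2 was at 9.998 to 30.5 CPM in the 10 poor libraries and 14.7 to 36.9 CPM in the 14 rich ones, and the 2 ranges overlapped.

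**Figure D2:**
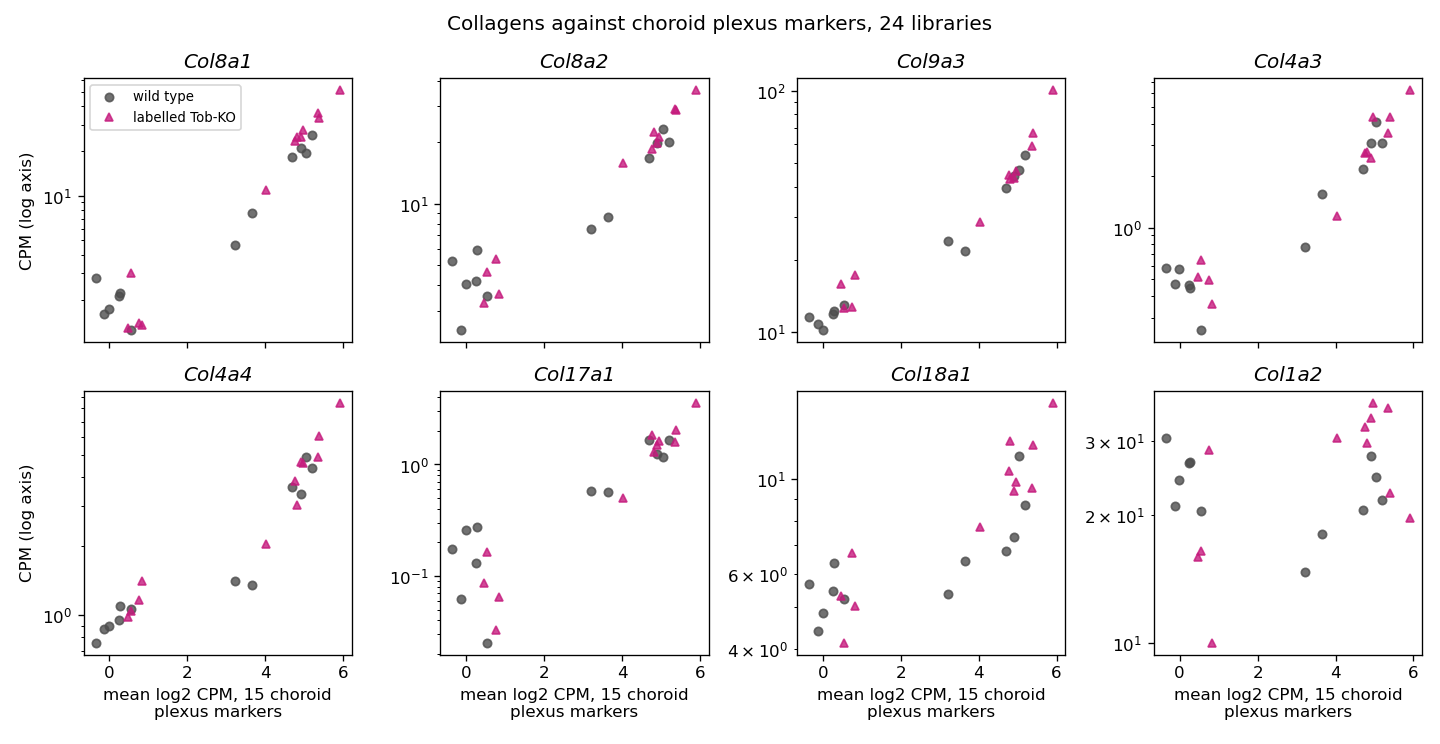
CPM of 8 collagens (log axis) against the mean log2 CPM of 15 choroid plexus markers in 24 libraries, with WT as grey circles and libraries labelled Tob-KO as magenta triangles. Col8a1, Col8a2, Col9a3, Col4a3 and Col17a1 are higher in each of the 14 rich libraries than in any of the 10 poor ones, while the ranges of Col18a1 and Col1a2 overlap.

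Within the 14 rich libraries the level of Ttr, the transthyretin gene of the choroid plexus, was related to Col9a3 (Pearson r = 0.96, adjusted permutation p = 8.00e-05, Spearman rho = 0.93, adjusted permutation p = 0.00016) and to Col8a2 (Pearson r = 0.96, adjusted permutation p = 8.00e-05, Spearman rho = 0.90, adjusted permutation p = 0.00016), both with a 2-sided permutation test. The unadjusted p of each r was 1e-05, the smallest that 100000 permutations can give. Without the 2 libraries farthest from the median of Ttr, WT naive replicate 2 and WT 1 h replicate 3, these were r = 0.98 (adjusted permutation p = 0.00016) and r = 0.89 (adjusted permutation p = 0.00048). Ttr and Col1a2 did not pass the test in the rich libraries (Pearson r = 0.36, adjusted permutation p = 0.229, Spearman rho = 0.16, adjusted permutation p = 0.632). Among the 10 poor libraries the permutation test gave adjusted p = 0.206 for Ttr with Col9a3 (r = 0.49, rho = 0.73), 0.394 with Col8a2 (r = -0.31, rho = -0.25) and 0.13 with Col1a2 (r = -0.62, rho = -0.61). For these pairs with Ttr group means were not removed, and libraries of different groups were permuted together within each set. In all 16 relations were tested and adjusted together, 3 of them added after the data were seen.

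Promoters are shown for the type VIII chains, both separated between the rich and the poor libraries, and for the head-to-head type IV pairs, from 250 bases before to 50 after the start in RefSeq's GRCm38.p6 annotation, read 5′ to 3′ on the gene's strand. Capitals mark the CCAAT box, the GC box written GGGCGG, or the TATA box written TATAAA, each searched on both strands with overlapping matches counted, and a match is a description only. Of 32851 promoters of this length 37.4% held a CCAAT box, 35.7% a GC box and 13.6% a TATA box. Of the 40 members with an entry 14, 24 and 5 did. The chains of type VIII collagen lie on different chromosomes, Col8a1 at chr16:57754688-57754987 (minus strand, GC 60.3%) and Col8a2 at chr4:126286544-126286843 (plus strand, GC 71.7%), and each held 4 GC boxes and neither of the other motifs.
Col8a1: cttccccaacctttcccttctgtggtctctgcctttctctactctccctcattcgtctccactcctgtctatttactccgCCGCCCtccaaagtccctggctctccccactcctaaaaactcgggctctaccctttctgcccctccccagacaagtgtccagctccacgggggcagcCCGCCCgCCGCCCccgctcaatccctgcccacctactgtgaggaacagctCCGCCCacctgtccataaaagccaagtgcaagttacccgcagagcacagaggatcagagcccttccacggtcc
Col8a2: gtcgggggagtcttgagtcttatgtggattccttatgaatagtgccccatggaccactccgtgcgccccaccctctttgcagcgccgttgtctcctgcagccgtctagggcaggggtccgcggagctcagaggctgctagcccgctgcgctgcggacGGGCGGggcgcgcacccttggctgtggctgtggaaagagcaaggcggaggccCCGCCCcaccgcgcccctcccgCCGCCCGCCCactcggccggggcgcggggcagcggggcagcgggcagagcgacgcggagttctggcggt

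Col4a3 and Col4a4 start head to head on chromosome 1, 71 bases apart in the GENCODE annotation, so 1 stretch lies upstream of both. The Col4a4 window, chr1:82586800-82587099 on the minus strand, reaches into Col4a3, held none of the 3 motifs, and has here the bases between the 2 genes in capitals.
Col4a4: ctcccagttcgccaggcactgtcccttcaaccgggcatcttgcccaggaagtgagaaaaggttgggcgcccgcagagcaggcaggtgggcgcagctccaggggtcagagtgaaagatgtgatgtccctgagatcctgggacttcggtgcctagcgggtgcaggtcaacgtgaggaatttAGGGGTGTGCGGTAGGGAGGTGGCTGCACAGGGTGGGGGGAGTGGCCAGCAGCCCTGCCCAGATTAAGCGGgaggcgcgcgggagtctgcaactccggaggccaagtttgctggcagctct

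The levels of this pair moved together in the rich libraries (Pearson r = 0.92, adjusted permutation p = 0.000213, Spearman rho = 0.82, adjusted permutation p = 0.00252, permutation tests, n = 14). The same test was not passed in the 10 poor ones, where both lay at or below 1.41 CPM (r = -0.48, adjusted permutation p = 0.206, rho = -0.53). Group means were not removed in either set. Both genes had higher medians in the rich libraries, where Ttr moved likewise with Col9a3 and Col8a2 (r = 0.96 each), genes on other chromosomes. The part of the choroid plexus in the relation of the pair was not tested. At 15 min Col4a4 was at 0.759, 1.098 and 0.897 CPM in WT mice, beside 1.16, 6.09 and 2.04 CPM in Tob-KO.

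At 15 min after conditioning Tob-KO was compared with WT by edgeR's exact test, a call needing a false discovery rate (FDR, the Benjamini-Hochberg adjusted p) up to 0.05 and a change of 2-fold or more. Col8a2 and Col9a3 were called, both higher in Tob-KO, 2 of 48 members against 0.457% of the 18364 genes tested. Col8a2 was at 5.26, 5.97 and 4.04 CPM in WT mice, beside 5.37, 28.7 and 15.8 CPM in Tob-KO, a log2 fold change of 1.71 (standard error, SE, 0.475, FDR = 0.0442). The groups overlapped, since Tob-KO replicate 1 lay within the WT range. Col9a3 was at 11.6, 12.2 and 10.2 CPM in WT mice, beside 12.7, 67.1 and 28.5 CPM in Tob-KO (log2 fold change 1.67, SE 0.472, FDR = 0.0442). Here the 3 Tob-KO libraries lay above the 3 WT libraries, replicate 1 by a small margin. Col8a1 had the largest log2 fold change of the members, 2.76 (SE 0.834, FDR = 0.0697), and was not called.

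All 15 choroid plexus markers were called higher in the same comparison, against 0.457% of 18364 genes. They summed to 32.1 to 52.2 CPM in the WT libraries and to 74 (replicate 1), 3498 (replicate 2) and 1339 CPM (replicate 3) in the Tob-KO ones. The poor Tob-KO library, replicate 1, was thus also the one within or close to the WT range for Col8a2 and Col9a3. Neither was called without WT replicate 1, 2 or 3 or without Tob-KO replicate 2 or 3. Without WT replicate 2 the 1 member called was Col6a3, and without Tob-KO replicate 1, the poor library, 7 were, Col17a1, Col4a3, Col4a4, Col6a3, Col8a1, Col8a2 and Col9a3. The edgeR quasi-likelihood test and DESeq2 called no member.

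Col1a1, Col1a2 and Col3a1, 3 of the 11 fibrillar collagens, were low in the same naive libraries. Where values of both genotypes are given from here on without a label, WT comes first. Col1a2 (chromosome 6, 4504814 to 4541544) was at 27.6, 14.7 and 26.5 CPM in the WT naive libraries and at 9.998, 19.7 and 36.9 CPM in the Tob-KO naive ones. The Tob-KO naive group thus held both the lowest and the highest of the 24 values. Col1a1 was at 14.01, 8.23 and 15.2 CPM in WT naive mice, beside 6.63, 9.36 and 16.3 CPM in Tob-KO naive, and Col3a1, the chain of type III collagen, at 4.21, 2.02 and 4.99 CPM and at 1.699, 3.42 and 6.23 CPM. For Col1a1 and Col3a1, as for Col1a2, Tob-KO naive replicate 1 was the lowest of the 24 libraries and WT naive replicate 2 the next. Fmod, at 18.9, 7.58 and 20.2 CPM and 2.61, 6.03 and 20.96 CPM, and Ogn, encoding osteoglycin, at 13, 6.91 and 12.1 CPM and 3.17, 8.702 and 15.2 CPM, had Tob-KO naive replicate 1 lowest of the 24 and WT naive replicate 2 among the 3 lowest. The minor fibrillar chains Col11a1 and Col11a2 had Tob-KO naive replicate 1 highest of the 24 (18.98 and 37.2 CPM) and WT naive replicate 2 next. The summed fibroblast markers were lowest in the same pair of libraries among the naive ones. Of this pair, Tob-KO naive replicate 1 was poor and WT naive replicate 2 rich in choroid plexus markers. In bulk tissue, fewer cells of a type and less RNA per cell cannot be told apart.

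With group means removed, Col1a1 and Col3a1 moved together over the 24 libraries (Pearson r = 0.87, adjusted permutation p = 0.00196, Spearman rho = 0.83, adjusted permutation p = 0.00252, permutations within groups). Col1a2 moved with Slc6a13, a transporter gene of fibroblasts that is no member (Pearson r = 0.86, adjusted permutation p = 0.00725, Spearman rho = 0.74, adjusted permutation p = 0.0139, permutations within groups). Without Tob-KO naive replicates 1 and 3, the 2 farthest on Col1a2, it was r = 0.77 (adjusted permutation p = 0.0388). Without the same 2 libraries the first pair gave r = 0.80 (adjusted permutation p = 0.0116). Within the rich and the poor libraries r was 0.927 and 0.766 for Col1a1 with Col3a1, and 0.941 and 0.754 for Col1a2 with Slc6a13. Col1a2 with Dcn (r = 0.50, rho = 0.34, adjusted permutation p = 0.145) and with Lum (r = 0.55, rho = 0.40, adjusted permutation p = 0.136) did not pass, and r was 0.34 and 0.25 without the 2 farthest libraries.

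Col1a2 moved against Col25a1, the neuronal collagen (Pearson r = -0.68, adjusted permutation p = 0.00406, Spearman rho = -0.71, adjusted permutation p = 0.00419, permutations within groups), with r = -0.70 (adjusted permutation p = 0.0208) without the 2 farthest libraries and r of -0.777 and -0.634 within the rich and the poor libraries. Both are shares of 1 library's counts. Against Col4a1, Col1a2 had r = -0.35 (rho = -0.30, adjusted permutation p = 0.0888), and within the rich and poor libraries r was -0.338 and -0.311.

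At 1 h no member was called between genotypes at a fold change of 2 (edgeR exact test, 0 of 48 against 0.033% of 18169 genes). DESeq2 and the quasi-likelihood test called none at these limits. By the exact test 15 of 48 members had an unadjusted p of at most 0.05, against 970 of 18169 genes. By the FDR alone 4 members were higher in Tob-KO, against 0.0826% of all genes. Col1a2 was at 24.6, 20.5 and 18.1 CPM in WT mice, beside 29.6, 33.9 and 35.8 CPM in Tob-KO (log2 fold change 0.65, SE 0.11, FDR = 0.000289). The 3 Tob-KO libraries lay above the 3 WT libraries. Col6a1 (chromosome 10, 76708792 to 76726168), of the beaded filaments, was at 14.4, 13.4 and 12.99 CPM and 20.5, 19.7 and 18.5 CPM (log2 fold change 0.52, SE 0.0778, FDR = 0.000289). Lum (chromosome 10, 97565128 to 97572703), encoding lumican, was at 3.79, 2.48 and 2.86 CPM and 5.298, 5.17 and 5.37 CPM (log2 fold change 0.80, SE 0.162, FDR = 0.0252). Dcn (chromosome 10, 97479609 to 97518143) was at 38.4, 33.5 and 38.03 CPM and 60.7, 49.2 and 43.96 CPM (log2 fold change 0.49, SE 0.107, FDR = 0.0348). For each of the 4 genes the groups did not overlap, which adds no support, since they were picked by the FDR in the same 6 libraries. How many of all genes did so was not counted.

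All 5 proteoglycans had log2 fold changes above 0 at 1 h, with a median of 0.49, against -0.00133 for all genes tested. The median was 0.04 for the 11 fibrillar and 0.19 for the 9 basement membrane collagens. Of the 48 members 35 lay above 0 and 13 below. Among the 35 were all 8 fibril-associated collagens (median 0.23) and the 2 hexagonal network collagens (median 1.30), so the direction was not particular to the proteoglycans. Fmod was at 17.9, 14.8 and 12.6 CPM in WT mice, beside 16.9, 23.7 and 29.1 CPM in Tob-KO (log2 fold change 0.62, FDR = 0.281, exact test). The fibroblast markers summed to 161 (replicate 2) to 360.3 CPM in the WT and to 334 to 394 CPM in the Tob-KO 1 h libraries, and none of the 14 was called. Igf2 and Igfbp2, the highest of them, had higher medians in libraries rich in choroid plexus markers. This sum can therefore follow the kind of library as well as the fibroblasts. The part of the fibroblast markers in the result was not tested. WT 1 h replicate 2 was poor in choroid plexus markers and the other 5 libraries were rich. Without the poor library Col1a2 had a log2 fold change of 0.63 (FDR = 0.00933) and Col6a1 one of 0.51 (FDR = 0.00964), both by the exact test, while the FDR was 0.255 for Lum and 0.337 for Dcn.

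By the quasi-likelihood test, which allows for the uncertainty of each spread, the FDR was 0.371 for Col1a2, 0.187 for Col6a1, 0.648 for Lum and 0.684 for Dcn, and by DESeq2 it was 8.84e-06, 0.000696, 0.0465 and 0.00344. With the spread estimated from all 24 libraries the exact test gave FDR = 0.292 for Lum and 1 for the other 3. Col1a2 and Col6a1 were past the FDR limit in each of the 6 exact tests that left out 1 library. Lum was past it only without WT replicate 1, and Dcn only without WT replicate 1 or Tob-KO replicate 3.

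**Figure D3:**
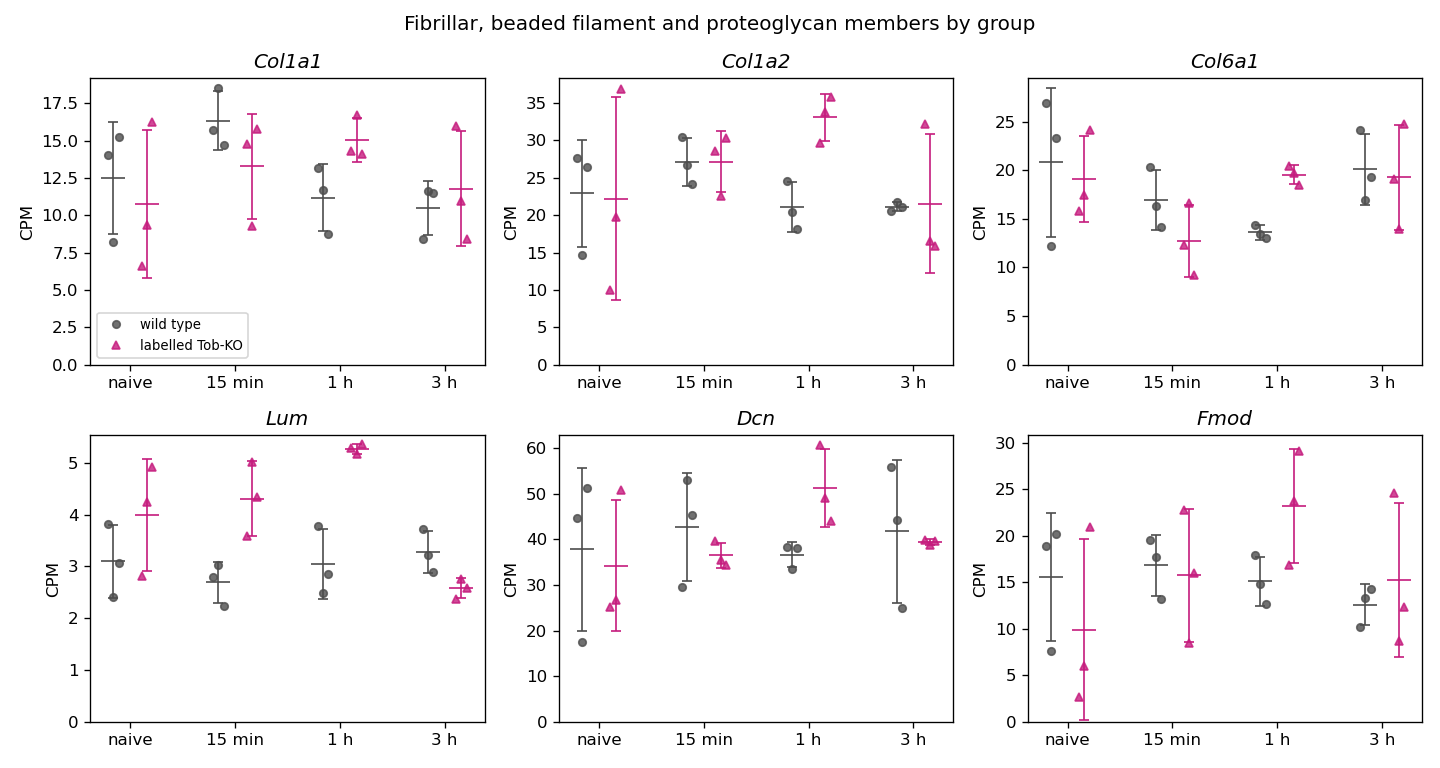
CPM of Col1a1, Col1a2, Col6a1, Lum, Dcn and Fmod by time, with 1 point per library (WT grey circles, labelled Tob-KO magenta triangles) and the mean with its SD (n = 3 a group). At 1 h the Tob-KO libraries of Col1a2, Col6a1, Lum and Dcn lie above the WT ones, and the Tob-KO naive libraries of Col1a2 run from 9.998 to 36.9 CPM.

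The main chains of type IV collagen were the steadiest members. Col4a1 and Col4a2 lie head to head on chromosome 8 and overlap by 22 bases in the GENCODE annotation, and their promoter windows, chr8:11312777-11313076 (minus strand) and chr8:11312555-11312854 (plus strand), share 78 bases. In capitals, the Col4a1 window (GC 74%) held 1 CCAAT box and 1 GC box, and the Col4a2 window (GC 73.7%) 1 CCAAT box and 3 GC boxes.
Col4a1: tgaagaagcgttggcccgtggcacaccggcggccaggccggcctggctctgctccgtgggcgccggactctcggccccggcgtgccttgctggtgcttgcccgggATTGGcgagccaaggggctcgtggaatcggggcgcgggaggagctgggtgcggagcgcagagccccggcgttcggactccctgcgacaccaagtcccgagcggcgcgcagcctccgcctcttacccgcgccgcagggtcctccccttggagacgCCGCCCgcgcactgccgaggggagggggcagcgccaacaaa
Col4a2: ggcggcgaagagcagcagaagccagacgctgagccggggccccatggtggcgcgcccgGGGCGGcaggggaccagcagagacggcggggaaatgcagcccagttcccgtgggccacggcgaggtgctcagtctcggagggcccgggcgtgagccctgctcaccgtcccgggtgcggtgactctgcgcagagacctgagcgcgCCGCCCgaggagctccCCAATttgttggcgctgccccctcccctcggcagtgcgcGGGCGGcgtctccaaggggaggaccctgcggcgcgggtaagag

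The 2 genes moved together within groups (Pearson r = 0.79, adjusted permutation p = 0.00878, Spearman rho = 0.70, adjusted permutation p = 0.0118, permutations within groups), with r = 0.62 (adjusted permutation p = 0.0414) without Tob-KO 15 min replicates 2 and 3, and with r of 0.803 and 0.679 in the rich and the poor libraries. Col4a1 did not pass the same permutation test with Cldn5, the tight junction gene of endothelium (Pearson r = -0.05, adjusted permutation p = 0.82, Spearman rho = -0.09, adjusted permutation p = 0.73), and r was -0.246 and 0.219 within the 2 sets.

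Among naive mice no member was called between genotypes (0 of 48, exact test, against 0.0218% of 18364 genes), and neither DESeq2 nor the quasi-likelihood test called one. By the exact test 5 of 48 members had an unadjusted p of at most 0.05, against 742 of 18364 genes. Col4a2 had the smallest p. It was at 53.4, 62.1 and 58.2 CPM in WT naive mice, beside 72.99, 70.9 and 72.7 CPM in Tob-KO naive libraries, which were the 3 highest of all 24 (log2 fold change 0.32, SE 0.0636, FDR = 0.23). It was the only member with these 3 libraries on top. Col4a1 was at 49.7, 49.5 and 48.2 CPM and 58.2, 59.6 and 55.1 CPM (log2 fold change 0.23, FDR = 0.898, exact test). All 9 basement membrane collagens had log2 fold changes above 0, with a median of 0.32, against 0.02 for the fibrillar collagens and 0.00571 for all genes tested. Of the 48 members 32 lay above 0 and 16 below. Among the 32 were the 2 hexagonal network collagens (median 1.24) and 7 of the 8 fibril-associated ones (class median 0.17). The ratio of the rich to the poor median was 6.03, 4.09, 1.79, 1.47 and 1.39 for Col4a3, Col4a4, Col18a1, Col4a5 and Col4a6. For Col4a1, Col4a2, Col7a1 and Col15a1 it was 0.96 to 1.08. Tob-KO naive replicate 2 had the highest choroid plexus mean of all libraries (5.91). The part of the choroid plexus in these naive values was not tested. Without Tob-KO naive replicate 1, a poor library, Col18a1 and Col4a6 were called.

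At 3 h no member was called between genotypes (0 of 48, exact test, against 0.0274% of 18255 genes), and DESeq2 and the quasi-likelihood test called none. None of the 48 had an unadjusted p of at most 0.05 by the exact test, against 725 of 18255 genes. Over all 4 times, with 12 against 12 libraries and time as a factor in edgeR's quasi-likelihood test, no member was called at an FDR of at most 0.05 (0 of 48 against 0.456% of 19500 genes). At an unadjusted p of at most 0.05 there were 7 of 48, against 2595 of 19500 genes, and DESeq2 called none. The smallest p values belonged to Lum (log2 fold change 0.39, SE 0.13, FDR = 0.189), Col18a1 (0.46, SE 0.182, FDR = 0.267) and Col9a1 (0.44, SE 0.179, FDR = 0.28). Within the 10 poor libraries the log2 fold change of Lum was 0.09 and that of Col18a1 0.11, and within the 14 rich ones 0.38 and 0.53. The test of whether the genotype difference changed with time called no member (0 of 48 against 0% of genes), nor did DESeq2. Its 2 members with an unadjusted p of at most 0.05 were Lum (FDR = 0.953 with edgeR) and Col4a2 (FDR = 0.953), 2 of 48 against 797 of 19500 genes.

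**Figure D4:**
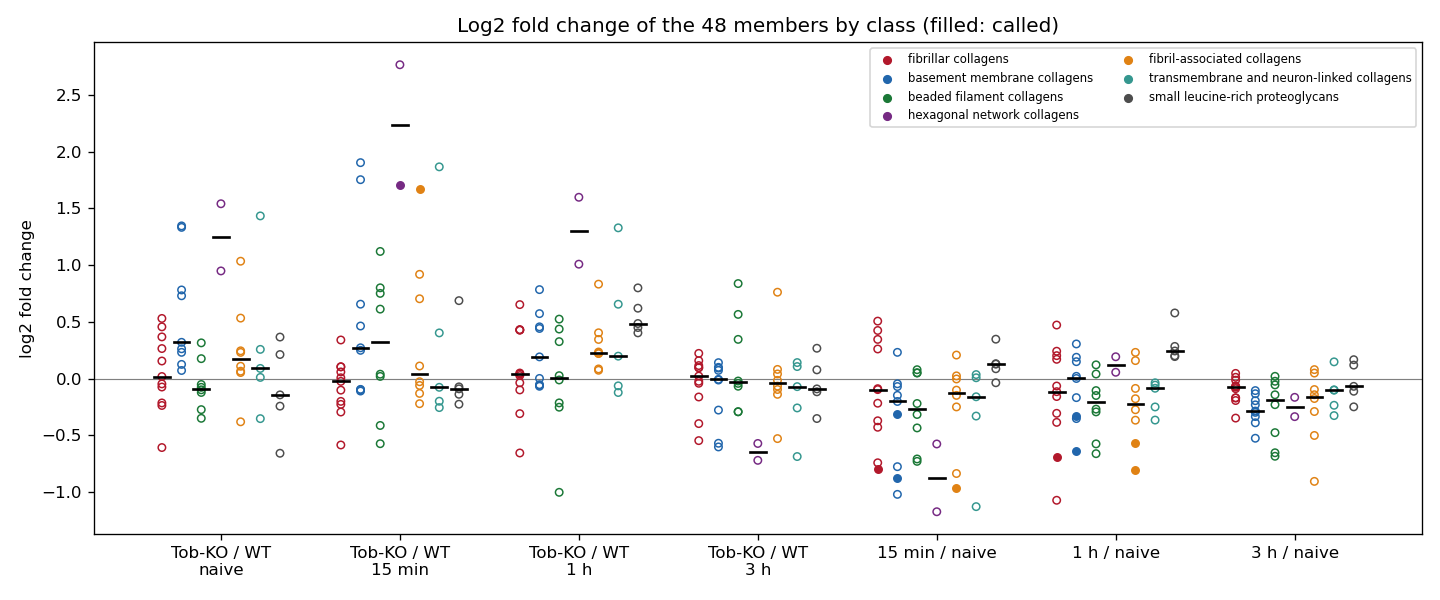
Log2 fold change of the 48 members by class for Tob-KO against WT at each time and for each time against naive in both genotypes. Each circle is 1 member, filled where called, and black bars are class medians, which for the hexagonal network collagens run from -0.87 (15 min against naive) to 2.24 (Tob-KO against WT at 15 min).

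After conditioning the members that passed the test all fell. Over both genotypes, in a fit of all 24 libraries with genotype and time as factors, 4 of 48 members were lower at 15 min than in naive mice (edgeR quasi-likelihood test, FDR of at most 0.05, no fold limit) against 3.03% of 19500 genes. At 1 h 5 were lower, against 3.71%, and none was higher at either time. Both times were set against the same 6 naive libraries.

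Col20a1 (chromosome 2, 180986535 to 181018363), a fibril-associated collagen, was at 3.71, 4.89 and 7.39 CPM in WT naive mice, beside 6.14, 6 and 6.76 CPM in Tob-KO naive libraries. The 15 min values were 2.599, 2.26 and 4.17 CPM in WT and 2.98, 4.14 and 1.75 CPM in Tob-KO, and the 1 h values were 3.39, 3.14 and 2.67 CPM and 3.77, 2.98 and 3.999 CPM. In Tob-KO mice the times did not overlap with naive, and in WT 1 of 3 libraries at 15 min lay within the naive range. The log2 fold change was -0.96 at 15 min (SE 0.176, FDR = 0.0035) and -0.80 at 1 h (SE 0.175, FDR = 0.00737).

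Col7a1 (chromosome 9, 108953586 to 108984875), the anchoring fibril collagen of basement membranes, was at 2.92, 4.08 and 4.52 CPM and 4.15, 3.83 and 4.55 CPM in WT and Tob-KO naive libraries and at 2.395, 1.58 and 2.82 CPM and 2.35, 2.85 and 1.17 CPM at 15 min. At 1 h it was at 2.66, 2.76 and 2.45 CPM and 2.299, 2.12 and 3.099 CPM. At 15 min all 6 libraries lay below all 6 naive ones, and at 1 h 1 Tob-KO library lay above the lowest naive WT library. The log2 fold change was -0.87 at 15 min (SE 0.164, FDR = 0.00391) and -0.64 at 1 h (SE 0.162, FDR = 0.0189). The 1 h call was lost without Tob-KO 1 h replicate 2.

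Col11a1 (chromosome 3, 114030540 to 114220718), a minor fibrillar chain, was at 7.55, 15.6 and 12.2 CPM and 18.98, 14.1 and 15.3 CPM in naive libraries and at 8.35, 6.24 and 8.91 CPM and 8.42, 11.1 and 4.99 CPM at 15 min. At 1 h it was at 8.55, 9.78 and 6.92 CPM and 8.097, 8.99 and 9.098 CPM. In Tob-KO mice the naive libraries lay above the later ones, and in WT the lowest naive library lay within the later ranges. The log2 fold change was -0.80 at 15 min (SE 0.176, FDR = 0.0108) and -0.69 at 1 h (SE 0.176, FDR = 0.0192). The 1 h call was lost without WT 1 h replicate 3 or Tob-KO naive replicate 1.

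Col4a2 (chromosome 8, 11312805 to 11449287) was at 54.3, 55.6 and 53.6 CPM and 48.2, 60.04 and 43.1 CPM at 15 min and at 48.6, 56.04 and 50.5 CPM and 52.4, 46.8 and 56.2 CPM at 1 h, in WT and Tob-KO libraries. Set beside the naive values above, the Tob-KO groups were apart and the WT groups overlapped. The log2 fold change was -0.31 at 15 min (SE 0.0759, FDR = 0.0203) and -0.33 at 1 h (SE 0.076, FDR = 0.0114). At 15 min it was not called without Tob-KO naive replicate 1 or 3 or without Tob-KO 15 min replicate 1 or 3.

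Col22a1 (chromosome 15, 71795795 to 72034227), a fibril-associated collagen, was called at 1 h and not at 15 min. It was at 2.25, 2.25 and 2.51 CPM and 2.78, 2.36 and 3.07 CPM in naive libraries, at 2.13, 2.85 and 2.34 CPM and 2.48, 2.31 and 3.04 CPM at 15 min and at 1.404, 1.67 and 1.45 CPM and 2.499, 1.49 and 1.77 CPM at 1 h. In WT the 1 h libraries lay below all naive ones, and in Tob-KO 1 of 3 lay within the naive range. The log2 fold change was -0.57 at 1 h (SE 0.129, FDR = 0.00969) and -0.003 at 15 min (FDR = 0.993). Whether the 2 times differed was not tested.

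**Figure D5:**
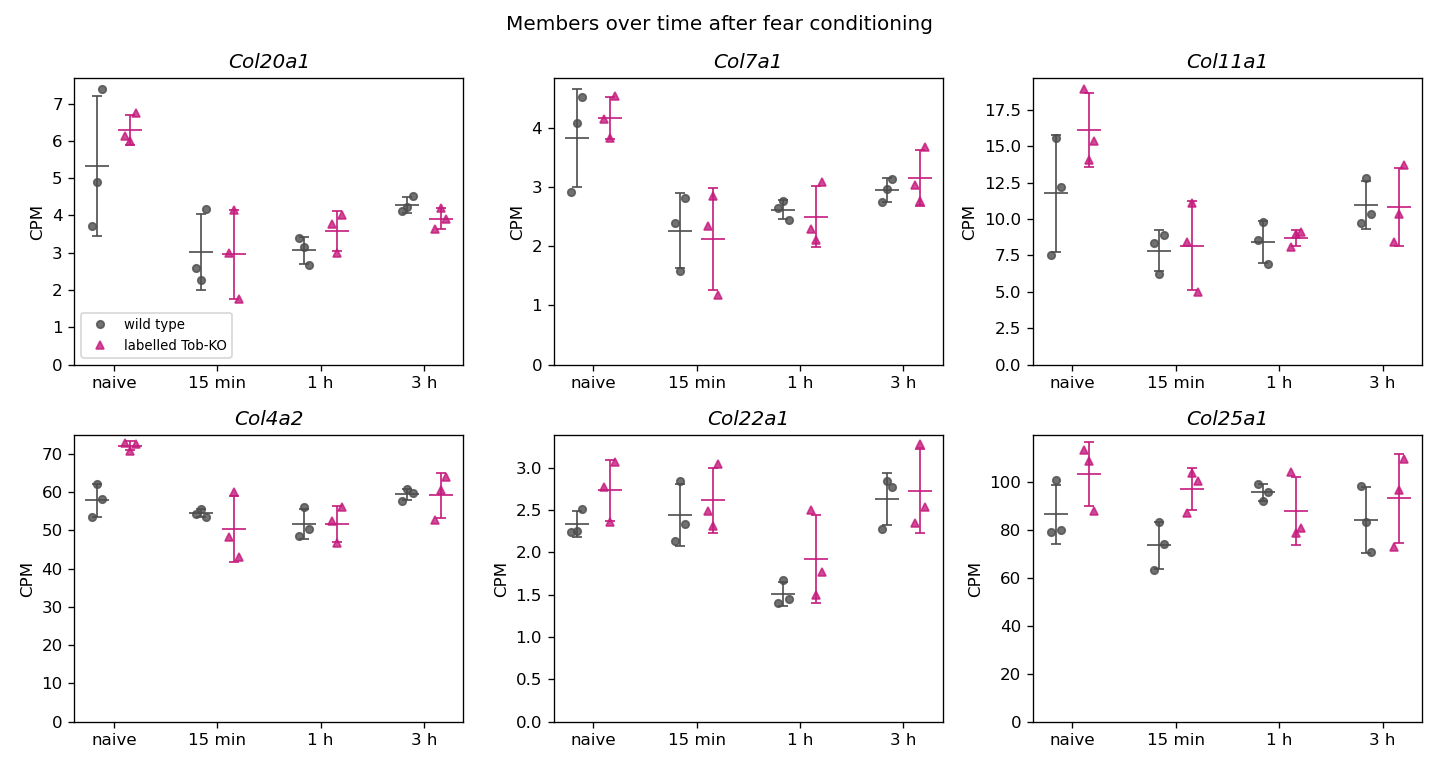
CPM of Col20a1, Col7a1, Col11a1, Col4a2, Col22a1 and Col25a1 by time, with 1 point per library (WT grey circles, labelled Tob-KO magenta triangles) and the mean with its SD (n = 3 a group). Col20a1, Col7a1 and Col11a1 are lower at 15 min and 1 h than in most naive libraries, and the 3 Tob-KO naive libraries of Col4a2 lie above all others.

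Within a genotype, 4 members were lower at 15 min than in naive Tob-KO mice, against 1.68% of 19500 genes, and 1 was lower at 1 h, against 0.708%. At 15 min these were Col4a2 (-0.52, FDR = 0.00694, edgeR), Col20a1 (-1.10, FDR = 0.0288), Col7a1 (-0.99, FDR = 0.0359) and Col11a1 (-0.99, FDR = 0.04), and at 1 h Col4a2 (-0.48, FDR = 0.0209), each value a log2 fold change. In WT mice no member was called at 15 min (against 0.0462% of genes) or at 1 h (against 0.185%), with 4 members at an unadjusted p of at most 0.05 at each time and none called by DESeq2. The difference between the genotypes was tested by the interaction above, which called none. The 15 min count in Tob-KO was 1, Col4a2, without Tob-KO naive replicate 1, 2 or 3 or Tob-KO 15 min replicate 1, and 0 without Tob-KO 15 min replicate 3. The call of Col11a1 was also lost without WT 1 h replicate 1 or 2, WT 3 h replicate 2 or 3, Tob-KO 1 h replicate 2 or Tob-KO 3 h replicate 2, libraries outside the comparison that enter through the shared spread, and so in 11 of the 24 fits that dropped 1 library. The 1 h count was 0 without Tob-KO naive replicate 1 or Tob-KO 1 h replicate 2, and 2 without Tob-KO naive replicate 3 or Tob-KO 15 min replicate 3.

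At 3 h no member was called against naive, over both genotypes (0 of 48 against 0% of genes, edgeR), in WT or in Tob-KO, and DESeq2 called none. At an unadjusted p of at most 0.05 there were 5, 3 and 6 of 48 members, against 1765, 779 and 2071 of 19500 genes. Col9a1 (-0.90, SE 0.259, FDR = 0.404), Col20a1 (-0.50, SE 0.173, FDR = 0.471) and Col6a3 (-0.65, SE 0.264, FDR = 0.479) had the smallest p values over both genotypes, given as log2 fold changes. Of the 48 members 40 had log2 fold changes below 0 at 3 h, with a median of -0.15, beside -0.00676 for all genes.

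Other measures of the libraries are given here by time. The first, a rank correlation with transcript length, overlapped between the times, and its difference was not tested. Each library's deviation from the mean log2 CPM was ranked against transcript length over 14021 genes, and the rank correlation was -0.251 to 0.0382 (mean -0.097) at 15 min, -0.211 to 0.273 (mean 0.0309) in naive mice and 0.0143 to 0.252 (mean 0.0841) at 1 h. With this value as a covariate, 2 members, Col20a1 (log2 fold change -0.77, FDR = 0.0211 with edgeR) and Col7a1 (-0.72, FDR = 0.0223), were called at 15 min, where Col11a1 had FDR = 0.0586 and Col4a2 FDR = 0.11. At 1 h the same 5 members were called with it. Among the vessel markers, 4 of 9 endothelial genes (Kdr, Cldn5, Flt1 and Pecam1) and 2 of 9 mural genes (Pdgfrb and Rgs5) rose at 15 min over both genotypes, against 1.68% of all genes, while Col4a1 had a log2 fold change of -0.05 (FDR = 0.789). Of the 6 libraries per time, 4 were rich in choroid plexus markers in naive mice, 2 at 15 min and 5 at 1 h. The part of the vessel markers in the falls was not tested. Within the poor libraries the log2 fold changes at 15 min were -1.21 for Col20a1, -0.93 for Col7a1, -0.88 for Col11a1 and -0.30 for Col4a2, and within the rich ones -0.99, -1.005, -0.77 and -0.38, of which Col20a1 in the poor libraries was called.

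At 15 min against naive the class medians of the log2 fold change were -0.10 for the fibrillar, -0.20 for the basement membrane, -0.27 for the beaded filament, -0.87 for the hexagonal network, -0.12 for the fibril-associated and -0.16 for the transmembrane and neuron-linked collagens and 0.13 for the proteoglycans, with 0.0027 for all genes. At 1 h they were, in the same order, -0.11, 0.00145, -0.21, 0.12, -0.23, -0.08 and 0.24, with -0.0031 for all genes. All 5 proteoglycans lay above 0 at 1 h without any being called.

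Col25a1 (chromosome 3, 130131501 to 130599877), a membrane collagen of neurons, had the highest mean CPM of the members and ran at 63.1 to 113 CPM. Its 15 min values were 63.1, 82.96 and 74.1 CPM in WT mice, beside 86.99, 103 and 100.1 CPM in Tob-KO. The Tob-KO libraries lay above the WT ones, and the log2 fold change was 0.40 (SE 0.103, exact test, FDR = 0.0507), which was not called. In naive mice it was at 78.8, 100.5 and 79.8 CPM and 113, 109 and 87.9 CPM, and these groups overlapped. Col19a1, of interneurons, ran at 9.66 to 23.5 CPM, Col23a1 at 9.05 to 22.2 CPM and Col13a1, of neuromuscular synapses and other cell contacts, at 0.817 to 2.58 CPM. Col19a1 at 1 h against naive (log2 fold change -0.36, FDR = 0.0683, edgeR) came closest to a call among these 3.

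The highest library was 41.8 times the lowest for Col6a4, 14.35 times for Col24a1 and 5.13 times for Col6a3. Col6a4 ran at 0.196 to 8.19 CPM, with 1.88, 3.86 and 8.19 CPM in WT naive mice, beside 0.196, 6.72 and 6.29 CPM in Tob-KO naive libraries. It was at or below 0.2402 CPM in 3 libraries, Tob-KO naive replicate 1, Tob-KO 1 h replicate 1 and WT 15 min replicate 2, 1 of them rich in choroid plexus markers, and at 0.957 CPM or more in the other 21. Col24a1, a fibrillar collagen, ran at 0.1999 to 2.87 CPM. Col6a3 at 15 min was at 3.85, 8.097 and 3.46 CPM in WT mice, beside 8.12, 14.4 and 10.9 CPM in Tob-KO (log2 fold change 1.12, SE 0.317, exact test, FDR = 0.0767), and the lowest Tob-KO value lay close to the highest WT value.

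Of 28 enzymes and chaperones that make or trim collagen, P3h3 and Bmp1 were lower at 15 min over both genotypes (log2 fold changes -0.39, FDR = 0.0108, and -0.37, FDR = 0.0387, edgeR), 2 of 28 against 3.03% of all genes. P3h3 encodes a prolyl hydroxylase and Bmp1 the proteinase that trims procollagen. At 1 h both were lower (-0.39, FDR = 0.00927, and -0.39, FDR = 0.0228) and P4ha1, a catalytic chain of the main prolyl hydroxylase, was higher (0.34, FDR = 0.00335), 2 of 28 lower against 3.71% of all genes and 1 higher against 2.44%. In Tob-KO mice P3h3 (-0.54, FDR = 0.0178) and Adamts14, a procollagen proteinase (-1.42, FDR = 0.0241), were lower at 15 min, 2 of 28 against 1.68% of all genes. Of 9 genes of collagen degradation tested, Timp4, an inhibitor of matrix metalloproteinases, was lower at 1 h (-0.25, FDR = 0.029), 1 of 9 against 3.71% of all genes.

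Of 7 collagen receptors, the integrin chain Itga11 was lower at 15 min (-0.49, FDR = 0.0308, edgeR) and 1 h (-0.48, FDR = 0.0276), 1 of 7 against 3.03% and 3.71% of all genes. Itga1 was higher at 15 min (0.42, FDR = 0.0228), 1 of 7 against 1.68%. The receptor kinase Ddr1 was higher in Tob-KO over the 4 times (0.19, FDR = 0.0452), 1 of 7 against 0.456% called in either direction. Each value is a log2 fold change. Of 14 laminins and other basement membrane genes, Agrn, encoding agrin, was lower at 15 min (-0.27, FDR = 0.0228, edgeR), at 1 h (-0.29, FDR = 0.00962) and at 1 h within Tob-KO mice (-0.40, FDR = 0.0477). This was 1 of 14 against 3.03%, 3.71% and 0.708% of all genes. In lists this short a single call is a description only. No other gene of these 4 lists was called in any of the 15 comparisons. Slc6a13 was the 1 fibroblast marker of 14 called over time (0.88, FDR = 0.0499 at 15 min, edgeR), against 1.68% of all genes higher at that time. No marker of ependyma or hippocampal neurons was called.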

How the data were processed

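RNA of hippocampi was sequenced as poly(A) libraries (150-bp paired ends). Per the labels and the study's methods, the authors aligned reads with STAR (2.6.1d) to GRCm38 and counted them per gene with HTSeq (0.9.0), and the deposited values are these raw counts. The annotation release and the strand setting are not given in the sources used here. Members and lists were chosen with earlier results of these data known. Named are members called, the 2 of each class with the highest CPM per kb, the 3 with the highest and the lowest SD, the 3 with the smallest p over 12 against 12 libraries and at each time against naive, called genes of the pathway lists (up to 5 a list), and the genes of the relations. Other members were named after their values were seen.

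Genotypes were compared at each time with edgeR (4.0.16, R 4.3.3) by the exact test, as in the study (TMM, at least 0.2 CPM in 2 libraries, FDR and p up to 0.05, fold change of 2 or more), on 6 libraries. SEs come from the quasi-likelihood fit. Fits of all 24 libraries used edgeR's quasi-likelihood test at an FDR up to 0.05. DESeq2 (1.42.0), RLE scaling, no filter, a replicate block and leaving out each library were the alternatives. Settings with choroid plexus sets or the length covariate were added after seeing the data. No 2 replicates agreed within counting noise. The labels do not say whether replicates are separate animals, while the study's statistical methods describe its replicates as biological ones. The p-values measure the spread between these samples. The fits were tested on simulated data. CPM in the text are TMM-normalized, and lengths and gene positions are those of GENCODE M21.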

Additional observations from a re-analysis of the deposited data

How the results depend on the processing

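With 2 members called between genotypes at 15 min, 0 were called by the quasi-likelihood test, by DESeq2, with the spread from 24 libraries and with the replicate block. At 1 h 4 passed without the fold limit. For 15 min against naive over both genotypes the 4 calls became 2 with the length covariate, 1 without the 14 rich and 0 without the 10 poor libraries, and for 1 h the 5 became 0 without the poor libraries. Within Tob-KO the 4 calls at 15 min became 2 with the length covariate and 0 without the poor libraries, and the 1 at 1 h became 3 by DESeq2, 2 with no filter, 4 with the length covariate and 0 without the poor libraries. Leaving out a set leaves fewer libraries to test. Some of these fits had a group of 1 library, assumed to vary like the others, and their counts say nothing of stability. Without the rich libraries they gave 0 calls between genotypes at 15 min (3 WT libraries, 1 Tob-KO), 1 at 3 h (Col6a3, 1 WT library, 2 Tob-KO), 0 at 1 h against naive (1 library at 1 h) and 2 within Tob-KO at 15 min (1 library against 1), where Col1a2 and Fmod were higher, while the 4 calls in all libraries were lower. Without the poor libraries the count was 1 between genotypes at 3 h (Fmod, 2 WT libraries, 1 Tob-KO).

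Between genotypes, with each library dropped in turn, the calls numbered 0 to 2 in naive mice, 0 to 7 at 15 min and 0 to 5 at 1 h (5 without WT replicate 1: Col17a1, Col4a4, Col8a1, Col8a2 and Col9a3), and 0 at 3 h and over the 4 times. For 15 min and 1 h against naive over both genotypes it gave 3 to 6 and 4 to 6, and within Tob-KO 0 to 6 and 0 to 2. At 3 h against naive, within WT and for the interaction it gave 0.

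Among the relations, 3 turned sign without the 2 farthest libraries, all without passing the test: Col4a1 with Cldn5 (r = 0.016), Ttr with Col1a2 in the rich libraries (r = -0.45) and Ttr with Col8a2 in the poor ones (r = 0.023). Ttr with Col9a3 in the poor libraries passed by Spearman rho (0.73), and Col4a3 with Col4a4 in the poor libraries passed without the 2 farthest (r = -0.82). The causes of these changes were not tested. Same-numbered libraries of 2 groups did not deviate together (mean r = -0.011), so the numbers were not used as pairs. Of the 4 members past the FDR limit without the fold limit at 1 h, 0 were past it with the block (FDR = 0.305 to 0.512, edgeR). Beyond these and the 15 min calls between genotypes, the replicate block changed no count of calls by over 1.5 times.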
